A study of Talpa occidentalis with 24 samples.

Results

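The Sox9 locus of the mouse was described from chromatin state segmentations of ovary and testis. The locus was taken as chr11:111950001-112700000 of the mouse build mm9, which runs from 693.5 kb before the Sox9 gene start to the stretch behind the gene. It holds 3750 bins of 200 bp, out of 609219 on chromosome 11 and 13274547 in the whole mouse segmentation. The gene lies near 112643500 to 112649100 on the plus strand. Its bins were taken by position alone and not by their states, but the locus was chosen with earlier results of these data known.

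The study compared histone marks in gonads of the Iberian mole, Talpa occidentalis, with those of the mouse. ChIP-seq, the sequencing of DNA pulled down with antibodies to a chromatin mark, was done for 4 histone marks: H3K4me3, H3K4me1, H3K27ac and H3K27me3. The labels place the mouse gonads at embryonic day 13.5 and the wild-type mole gonads at postnatal day 7. The 24 labelled libraries are all from the mole, 8 from each of 3 tissues: testis, and the ovarian and testicular parts of the ovotestis. Strain, genotype, pooling and library number of the mouse samples are therefore not known here. The names ovary and testis come from the headers of the 2 mouse segmentations. On chromosome Y, which XX gonads lack, the gap state covered 98.8% in ovary and 92.8% in testis, and the promoter state covered 0% in ovary and 0.104% in testis. Other states were called there in ovary as well, with 0.616% of bivalent promoter (0.851% in testis) and 0.382% of Polycomb repression (0.755% in testis).

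SOX9 is the transcription factor that starts and maintains the Sertoli cell fate, the supporting cell type of the testis. In the XY gonad SRY and SF1 (NR5A1) raise Sox9, and SOX9 itself then keeps it high, while the XX gonad keeps it low. The gene sits beside a long stretch without other protein-coding genes, a gene desert, whose upstream side carries enhancers for testis and for other tissues such as cartilage. TES, with its core TESCO, was the first testis enhancer described there. Enh13 lies far upstream, and its deletion in mice turns XY gonads into ovaries. Enh14 and Enh8 were found in the same search for testis enhancers.

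Each bin carries 1 of 7 state names given by the authors. Those of promoters are promoter and bivalent promoter, and those of enhancers are active and poised enhancer. The others are Polycomb repression, gap and undefined. By common use, a bivalent promoter carries both H3K4me3 and H3K27me3, a poised enhancer carries H3K4me1 without H3K27ac, and Polycomb repression carries H3K27me3. How the authors tied states to marks is not stated in the labels or headers. Active coverage below means the percent of bins in the promoter or active enhancer state. Each tissue has a single segmentation, so the differences have no replicate check and no test between ovary and testis was run. Intervals in brackets are Wilson 95% intervals that cover the counting of bins only, and neighbouring bins are not independent. In whole gonads, a state held by a fraction of the cells cannot be told apart from a weaker signal in all of them.

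Polycomb repression was the state with the largest share of the Sox9 window in both tissues, with less of it in testis than in ovary, and little of the window was active in either. Polycomb repression took 48.0% of the window in ovary [46.4 to 49.6] and 35.6% in testis [34.1 to 37.2], a testis minus ovary difference of -12.4 percentage points. Active coverage was 2.61% in ovary [2.15 to 3.17] and 3.79% in testis [3.22 to 4.45], a difference of 1.17 points. The bivalent promoter state covered 1.81% in ovary and 0.453% in testis. The poised enhancer state covered 22.0% and 25.2%, and the undefined state 24.5% and 33.6%, in the same order. Over chromosome 11 Polycomb repression covered 23.4% in ovary and 23.0% in testis. In the same order, the bivalent promoter state covered 1.11% and 0.575% there, and the poised enhancer state 17.3% and 21.0%. The undefined state covered 31.9% and 33.6% there. The undefined difference of the locus, 9.17 points, was above the median of 1.41 points in the other chromosome 11 windows of this length. The poised enhancer difference of the locus, 3.2 points, was below the median of 4.05 points in the other chromosome 11 windows of this length. The states were equal in 45.8% of the bins of the window and in 50.9% of those of chromosome 11.

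The gene itself was mainly in the bivalent promoter state in ovary and was split between the bivalent promoter and poised enhancer states in testis. Within 2 kb of the gene start lie 21 bins. In ovary 16 of them (76.2%) were bivalent, 4 were in the Polycomb state and 0 were in the promoter state. In testis 11 (52.4%) were bivalent, 6 were poised enhancer, 2 were Polycomb and 2 were promoter. At least 50% of the bins were thus bivalent in both tissues, which was so for 0.983% of chromosome 11 windows of this length in ovary and 0.212% in testis. Those windows were laid end to end and not centred on gene starts, so these shares do not compare Sox9 with other promoters. The bivalent share depended on the distance taken: within 1 kb it was 54.5% and 45.5%, and within 5 kb it was 82.4% and 31.4%, in ovary and testis.

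Just before the gene start, ovary was bivalent where testis was mostly poised enhancer. In ovary a single bivalent stretch of 5000 bp ran from 4.9 kb upstream to 0.1 kb past the gene start. Of the 701 bivalent stretches of chromosome 11 in ovary, 46 were longer, and the median was 1000 bp. Bivalent stretches of testis were shorter over the whole chromosome, with a median of 400 bp among 1029. Most of the same 5 kb was poised enhancer in testis, with a run of 2800 bp from 4.7 to 1.9 kb upstream. The promoter state of testis formed 1 stretch of 400 bp, from 0.7 to 0.3 kb upstream, between bivalent bins. It was the only stretch of the promoter state in the testis window. Past the start, a bivalent stretch of 1600 bp, from 1.1 to 2.7 kb, was called at the same bins in both tissues. On chromosome 11, 237 of 701 bivalent stretches were longer than it in ovary, and 56 of 1029 in testis. The end of the gene, from 3.3 to 5.7 kb, was bivalent in ovary, while testis was poised enhancer from 3.5 to 7.5 kb. Over the 29 bins of the gene body, the bivalent promoter state took 21 in ovary and 13 in testis, and the poised enhancer state took 1 and 14.

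**Figure D1:**
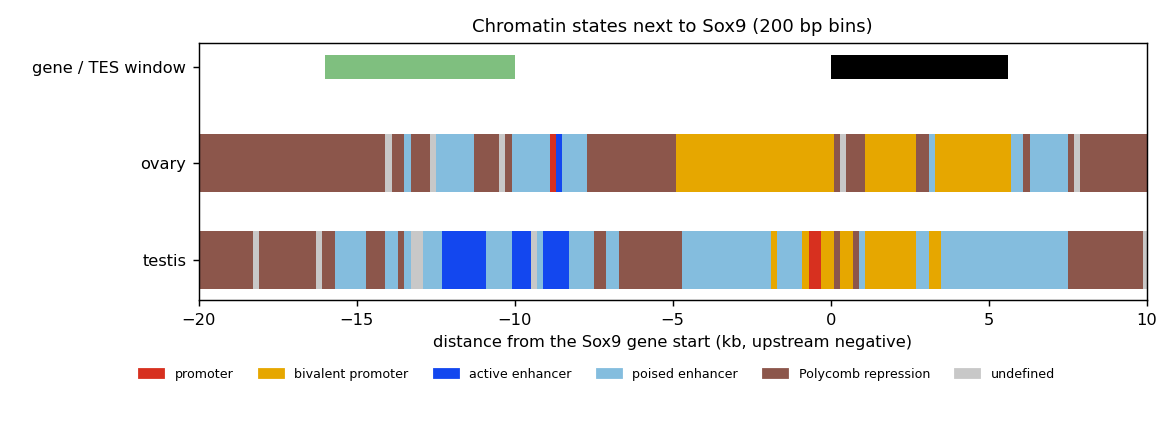
Chromatin states from 20 kb before to 10 kb after the Sox9 gene start in ovary (middle row) and testis (bottom row). The x axis is the distance in kb, the black bar is the gene and the green bar the 10 to 16 kb window set for TES. The 5000 bp bivalent stretch of ovary ends at the gene start, and 3 active enhancer stretches of testis lie between 12.3 and 8.3 kb upstream.

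Windows for the 4 published testis enhancers were set from approximate published distances to the gene start, which were recalled and not read from a source. No file used here places the enhancers, so their positions in mm9 are unchecked, and a state in a window is not a measurement of the element. The window set for TES, 10 to 16 kb upstream of the gene, had active bins in testis and none in ovary. Of the 30 bins of this window, 7 (23.3%) were active enhancer in testis, 15 were poised enhancer and 6 were in the Polycomb state. In ovary 0 were active, 7 were poised enhancer and 20 (66.7%) were Polycomb. The active bins of testis formed 1 stretch of 1400 bp at chr11:112631201-112632600, from 12.3 to 10.9 kb upstream. Of its bases, 71.4% were poised enhancer in ovary and 28.6% were Polycomb. A pattern of some active bin in testis and none in ovary was present in 8.03% of the 6 kb windows of chromosome 11. A further stretch of 600 bp, from 10.1 to 9.5 kb upstream, was also active in testis only. The third, of 800 bp from 9.1 to 8.3 kb upstream, was shared, since ovary had 400 active bp inside it, 1 bin of which was in the promoter state. Over the whole band from 2 to 20 kb upstream, active coverage was 2.22% in ovary and 15.6% in testis, and Polycomb coverage was 60% and 40%.

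The window set for Enh13, 560 to 570 kb upstream, also had active bins in testis and none in ovary. Testis had 7 active bins of 50 (14%) and ovary had 0. The testis bins lay in stretches of 200 bp, from 565.1 to 564.9 kb upstream, and of 1200 bp, from 564.5 to 563.3 kb upstream (chr11:112079001-112080200). Of the bases of the longer one, 66.7% were poised enhancer in ovary and 33.3% were Polycomb. Polycomb coverage of the window was 62% in ovary and 36% in testis. Active bins in testis only occurred in 8.33% of the 10 kb windows of chromosome 11 that had under 50% of gap state in both tissues. Within the Sox9 window itself, 11 of 75 adjoining stretches of 10 kb (14.7%) were active in testis only and 9 (12%) in ovary only, so the pattern was not confined to these windows. The chromosome share of 10 kb windows active in ovary only was not computed, so these counts do not compare the tissues. The pattern of active bins in testis only also depended on where the borders fell. In these 10 kb stretches, the one with the 1400 bp of the TES window was active over 4% in ovary and 28% in testis. The one with most of the 1200 bp of the Enh13 window was active over 6% and 18%.

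The windows set for Enh14 and Enh8 had active bins in both tissues. The Enh14 window, from 430 to 440 kb upstream, was active over 14% in ovary and 16% in testis, and it was poised enhancer over 52% in each. Both tissues had an active stretch that began 436.7 kb upstream, ending at 435.7 kb in ovary and at 435.9 kb in testis. The same window held 800 bp active in testis only, from 435.5 to 434.7 kb upstream, and 400 bp active in ovary only, from 438.7 to 438.3 kb. Of the 10 kb windows of chromosome 11, 52.3% held active bins in both tissues. The Enh8 window, from 830 to 850 kb upstream, lies outside the locus as defined here. Active coverage there was 19% in ovary and 5% in testis, the reverse of the order in the TES and Enh13 windows. Ovary had an active stretch of 2800 bp, from 839.5 to 836.7 kb upstream, and 8 of the ovary's 19 active bins were in the promoter state. Testis had 1000 bp, from 837.7 to 836.7 kb. Active bins in both tissues were found in 66.7% of the 20 kb windows of chromosome 11.

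Of the active stretches of at least 400 bp, most were found in 1 tissue only. Among those of at least 1000 bp this held for 3 of 6 in ovary and 8 of 10 in testis. No chromosome share was computed at that length, so these small counts do not compare the tissues. Ovary had 25 active stretches of at least 400 bp, of which 19 (76% [56.6 to 88.5]) shared no base with an active bin of testis. Testis had 29, of which 22 (75.9% [57.9 to 87.8]) shared none with ovary. Over chromosome 11 these shares were 36.7% of 11901 stretches in ovary and 25.6% of 12838 in testis. The locus had short stretches, with medians of 600 bp in ovary and 800 bp in testis against 1200 and 1000 bp on the chromosome, and few of them, 33.3 and 38.7 per Mb against 97.7 and 105.4. In the 32 other windows of 750 kb with under 5% of active coverage in ovary, 58.6% of the ovary stretches and 63.5% of the testis stretches were unshared. Bins active in testis and not in ovary made up 3.25% of the locus, and bins active in ovary and not in testis 2.08%. On the chromosome these were 4.78% and 9.37%, so the order of the tissues was the opposite one.

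The unshared stretches, which by definition were not active in the other tissue, were mostly poised enhancer there. Of the bases of those found in testis only, 74.4% were poised enhancer in ovary, 15.9% were Polycomb and 7.32% were undefined. Of those found in ovary only, 70.2% were poised enhancer in testis, 17.5% were Polycomb and 12.3% were undefined. For unshared stretches of the whole chromosome, the poised enhancer share was 45.9% in ovary for those of testis and 48.3% in testis for those of ovary, and the undefined share was 39.5% and 37.9%. The longest in testis only were the 1400 bp in the TES window and another 1400 bp from 543.5 to 542.1 kb upstream, which was poised enhancer over its whole length in ovary. Next came the 1200 bp in the Enh13 window and stretches of the same length that began 675.7, 369.5 and 338.3 kb upstream, the last of them tied with the fifth. The longest in ovary only were 3 of 1000 bp that began 442.7, 244.7 and 239.7 kb upstream, and 800 bp that began 390.3 kb upstream. The fifth, of 600 bp, began 573.1 kb upstream and was tied with 7 others. It ended 572.5 kb upstream, where a testis stretch of 600 bp began.

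**Figure D2:**
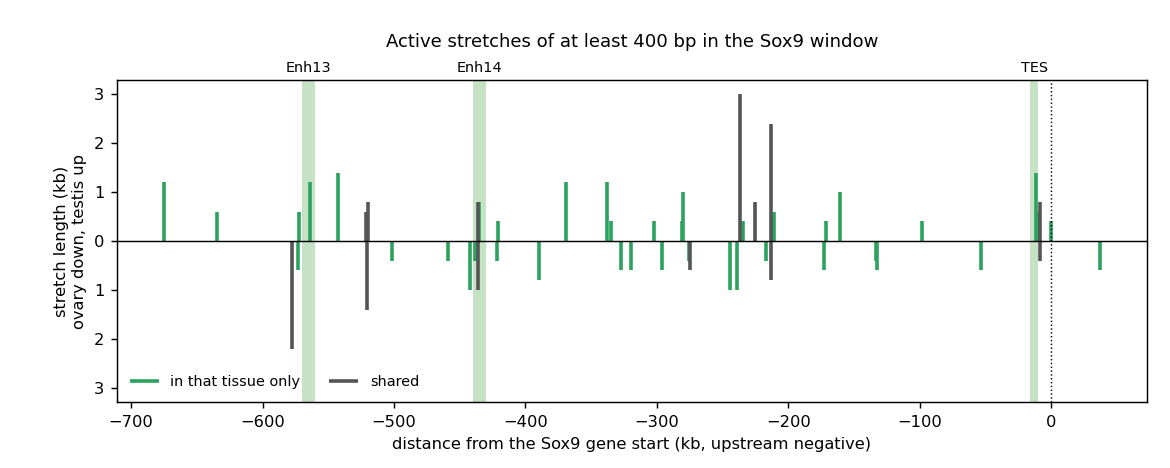
Active stretches of at least 400 bp in the Sox9 window by distance from the gene start in kb (x axis) and by length in kb (y axis), with testis drawn upward and ovary downward. Green bars share no base with active bins of the other tissue, grey bars do, and green bands mark the TES, Enh14 and Enh13 windows. The longest bars are the 3000 and 2400 bp testis stretches near 238 and 214 kb upstream.

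The 2 longest active stretches of testis shared bases with ovary and lay more than 200 kb upstream. The first had 3000 bp, from 238.3 to 235.3 kb upstream, and only 6.67% of its bases were active in ovary. The second had 2400 bp, from 214.3 to 211.9 kb upstream, with 41.7% active in ovary. The next, of 800 bp each, began 520.3, 436.7 and 225.5 kb upstream, and a further one of the same length began 9.1 kb upstream. In ovary the longest shared stretch, 2200 bp from 578.3 to 576.1 kb upstream, held 6 bins of promoter state. Only 9.09% of it was active in testis, and the rest was poised enhancer. The next shared stretches of ovary had 1400, 1000, 800 and 600 bp and began 520.9, 436.7, 213.5 and 275.3 kb upstream. Of their bases, 71.4%, 80%, 100% and 33.3% were active in testis, in that order. A bivalent stretch of 2000 bp in ovary lay beside the 2200 bp one, from 583.5 to 581.5 kb upstream. In testis no bivalent bin was called more than 1.9 kb upstream of the gene. Behind the gene, ovary had 3 bivalent stretches between 27.3 and 30.1 kb downstream, where testis had 1 of 200 bp.

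Along the upstream side, Polycomb coverage was lower in testis in each distance band, and active coverage was higher in testis in each upstream band but that from 550 to 600 kb. From 20 to 100 kb upstream Polycomb took 53.5% in ovary and 42% in testis, with active coverage of 0.75% and 1%. From 100 to 250 kb it took 40.5% and 31.2%, with the highest active coverage beyond the first 20 kb in testis, 6.4%, against 3.87% in ovary. From 250 to 400 kb it took 40.7% and 27.3%, and from 400 to 550 kb 48.3% and 34.9%, with active coverage between 2.93% and 3.6% in both tissues. From 550 to 600 kb Polycomb took 60.4% and 46%, and active coverage was 5.6% in ovary and 4.4% in testis. Beyond 600 kb it took 59.1% and 45.4%, and active bins were present in testis (2.14%) and not in ovary, where 0 of 467 were active. Behind the gene Polycomb covered 50.8% and 40.2%, and active coverage was 1.18% in ovary (3 bins) and 0% in testis.

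In stretches of 10 kb, Polycomb coverage was lower in testis in 65 of 75 (86.7%), equal in 2 and higher in 8. On chromosome 11 it was lower in testis in 42.1% of such stretches. The coverage of the 75 ranged from 8% to 86% in ovary, with a median of 48%, and from 2% to 76% in testis, with a median of 34%, so the ranges overlapped. Active coverage differed most at 2 places, both in favour of testis. It was 12% in ovary and 36% in testis from 243.5 to 233.5 kb upstream, and 4% and 28% from 13.5 to 3.5 kb upstream. The place with the largest excess in ovary lay from 583.5 to 573.5 kb upstream, with 22% in ovary and 2% in testis.

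**Figure D3:**
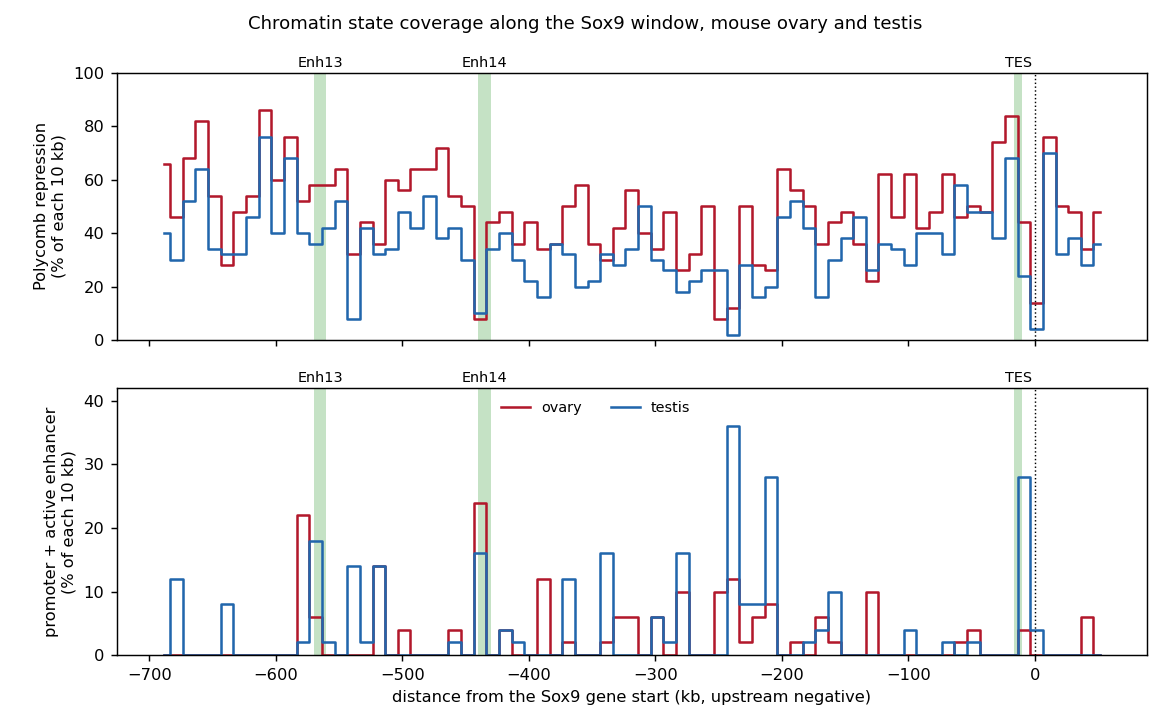
Polycomb repression (top) and active coverage (bottom) in consecutive 10 kb of the Sox9 window, in percent, by distance from the gene start in kb. Ovary is red, testis is blue, the dotted line is the gene start and green bands mark the TES, Enh14 and Enh13 windows. Testis lies below ovary for Polycomb in 65 of 75 places, and the tallest testis peaks of active coverage reach 36% and 28%.

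Bins that were Polycomb in ovary and not in testis made up 25.8% of the locus, against 13.2% of chromosome 11. The reverse held for 13.4% of the locus and 12.8% of the chromosome. Of the 1801 Polycomb bins of ovary, 46.3% were Polycomb in testis, 36.0% undefined, 16.3% poised enhancer and 1.05% active enhancer. On chromosome 11 the same shares were 43.7%, 39.7%, 13.8% and 1.85%. Of the 68 bivalent bins of ovary, 14 (20.6%) were bivalent in testis, 40 (58.8%) poised enhancer and 11 (16.2%) Polycomb. On the chromosome, bivalent bins of ovary were most often Polycomb in testis (53.5%), and 17.1% were poised enhancer. Polycomb stretches over 2 kb numbered 31 of 483 in ovary (6.42%) and 9 of 474 in testis (1.90%). On chromosome 11 the shares were 2.64% and 1.81%, so testis at the locus was near the chromosome value and ovary was above it. The longest in ovary had 7200 bp, from 21.3 to 14.1 kb upstream, which reaches into the 10 to 16 kb window. The longest in testis had 6200 bp, from 591.5 to 585.3 kb upstream.

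The locus was then set against the other windows of 750 kb on chromosome 11, of which 157 had under 50% of gap state in both tissues. In ovary its Polycomb coverage was the fifth highest of the 158, and in testis it ranked 19. Its Polycomb difference between testis and ovary was exceeded in size, in the same direction, by 3 windows. In 4 of 158 windows (2.53%) Polycomb was at least 10 points lower in testis, and the Sox9 window was 1 of them. Its active coverage was higher in testis, as in 23 of 158 windows (14.6%), while chromosome 11 as a whole held 19.9% of active states in ovary and 15.3% in testis. The active difference of the locus exceeded that of 92.4% of the other windows. With both tissues scaled to an equal chromosome total, the difference was 2.04 points and exceeded 76.4% of the others. Among the 32 other windows with under 5% of active coverage in ovary, 13 were higher in testis, 7 of them by more than the locus. Among the 11 others with at least 40% of Polycomb in ovary, 9 were lower in testis, 2 of them by more than the locus.

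**Figure D4:**
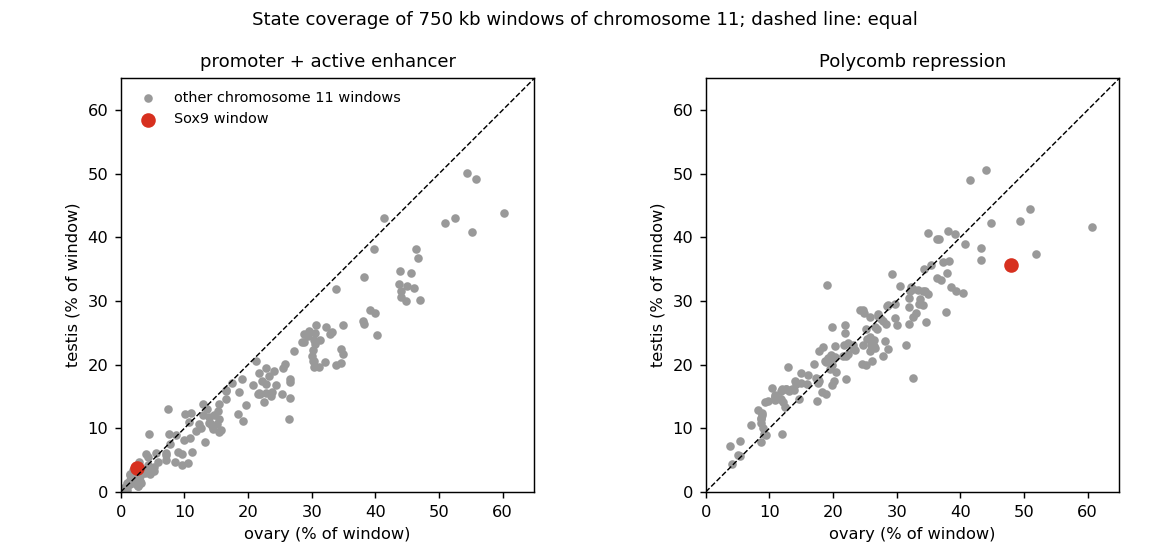
Active coverage (left) and Polycomb repression (right) of 158 windows of 750 kb on chromosome 11, in percent of the window, with ovary on the x axis and testis on the y axis. The Sox9 window is red, and the dashed line marks equal values. It lies near the origin on the left (2.61% and 3.79%) and below the line on the right (48.0% and 35.6%).

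The lower Polycomb coverage of testis went on upstream beyond the locus. Of the 3 other windows with a difference of at least 10 points, 2 adjoined it in a row, so that 2.25 Mb up to and including the locus shared it. The window just before, chr11:111200001-111950000, had 60.6% in ovary, the highest of all 158, and 41.7% in testis. The one before that, chr11:110450001-111200000, had 51.8% and 37.4%. Active coverage was 1.41% in ovary and 2.64% in testis in the nearer window, and 1.39% and 2.77% in the farther one. The window behind the locus, chr11:112700001-113450000, differed from these. Its Polycomb coverage was 34.6% in ovary and 26.6% in testis, and its active coverage was higher in ovary (15.4%) than in testis (11.4%).

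By the summed difference over all 7 states and both tissues, the window most like the locus was the farther upstream one, with 35.5 points, where the median of the others was 101.1. The next were chr11:66200001-66950000 with 37.0 points and chr11:81950001-82700000 with 40.1. In both of these, active coverage was higher in ovary, with 7.12% against 4.96% in testis and 15.8% against 9.73%. Their Polycomb coverage was 37.9% and 36.4% in ovary, and 34.4% and 33.7% in testis.

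In the mole, SOX9 was found as 1 gene model on the assembly talOcc3. It lies on the plus strand of scaffold 28 at 19363397 to 19364237, has 1 exon of 841 bp, and matched positions 1057 to 1899 of its target, so it covers part of the gene. The nearest model upstream was KCNJ2, a potassium channel gene, 1422 kb away, followed by KCNJ16 and MAP2K6 at 1460 and 1898 kb. The nearest named model downstream was a copy of SLC39A11, a zinc transporter gene, at 386 kb, and the full SLC39A11 model began 482 kb away. In the RefSeq gene table of the mole, the coding neighbours of SOX9 were also KCNJ2 and SLC39A11. The mole segmentations lie on another assembly, talOcc4, so mole chromatin states at SOX9 were not analysed here.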

How the data were processed

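The mouse segmentations were used as the authors deposited them. The tool was EpiCSeg, per the file headers, with no version named. They hold a state name per segment and no other value, so the depth behind each call is unknown. The submitters' processing notes name the build mm9 and STAR 2.6.1d. Every segment begins and ends at a multiple of 200 bp, and the states were read into bins of that size with Python 3.11.15, NumPy 2.4.6 and pandas 2.3.3; the functions were tested on simulated data. Active stretches are runs of promoter or active enhancer bins. Windows with at least 50% of gap state in either tissue were left out of the ranking. They were also left out of the chromosome 11 shares of windows of 4.2, 6, 10 and 20 kb. The gene position was taken from the definition of the locus, since no mouse annotation was used. The text names SOX9, its nearest mole neighbours, windows for 4 published enhancers, the 5 longest stretches of each kind and the 3 most similar windows. Places singled out along the profile, the flanking windows, and the subsets under 5% of active or at least 40% of Polycomb coverage were added after their values were seen. The locus, lists and rules were chosen with earlier results of these data known. The mole segmentations enter no comparison.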

Additional observations from a re-analysis of the deposited data

How the results depend on the processing

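Of 46 recomputed values, 37 stayed within their counting interval or within 1.5 times the main count, 9 moved and 0 changed sign. Some of the 37 could not move. For the active enhancer state alone, the TES, Enh13 and Enh14 windows, and the Enh8 window of testis, had no promoter bins to leave out. With each tissue scaled to the same chromosome 11 total, the active difference was 2.04 points instead of 1.17 and exceeded 76.4% of the other windows instead of 92.4%. The scaling moved active coverage of the locus to 2.31% in ovary and 4.35% in testis, and the cause of the change in rank was not tested. With windows laid from the first base of the chromosome, the Polycomb difference exceeded 99.4% of the others instead of 98.1%. Unshared stretches numbered 3 in ovary and 8 in testis at a minimum of 1000 bp, and 34 in testis at 200 bp. No chromosome share was computed at these lengths, so the counts do not compare the tissues. Bivalent coverage was 54.5% in ovary within 1 kb and 31.4% in testis within 5 kb. For the active enhancer state alone, the Enh8 window of ovary held 11%, because its promoter bins were left out. The Polycomb alternatives were chosen after seeing the data. No paired analysis was possible because each mouse tissue has 1 segmentation, and no replicate could be left out. Depth is unknown, so a missing active bin may be a weak signal.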
